A study of Mus musculus with 6 samples.

Results

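A set of 10 cytokine and feedback genes was followed in cultured mouse keratinocytes, which form the epidermis, after knockout of Gpx4. It held Tslp and Il7, the colony-stimulating factor genes Csf1, Csf2 and Csf3, the IL-6 family genes Il6 and Lif, the cytokines Il24 and Tnf, and the feedback inhibitor Socs3. A probe set was taken when its single annotated gene symbol was one of these names, which gave 17 probe sets for 10 genes of the 18193 genes that had a probe set of their own. The primary cells were taken from newborn C57BL6/FVB skin and cultured with 100 nM sodium selenite, a selenium source, in every group. In the knockout group Gpx4, whose enzyme reduces lipid hydroperoxides, was targeted through K14-cre. This recombinase is under a keratin 14 promoter that works in the basal layer. The other group held cells labelled only as controls, and the labels used here do not say which alleles they carried. Each array measured 1 pool of cells of 1 genotype from 1 of the litters A, B and C, so that 3 knockout arrays stood against 3 control arrays of the same litters.

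Keratinocytes are a source of cytokines that speak to immune cells and to the epidermis itself. Tslp acts on dendritic cells and lymphocytes and is a trigger of allergic inflammation in skin, and its receptor pairs Crlf2 with the IL-7 receptor. The colony-stimulating factors govern macrophages and neutrophils. IL-6-type cytokines bind receptors that share the chain Il6st, which activates JAK kinases and the transcription factor Stat3, and Socs3 is induced by this route and shuts it down. Many of these cytokine messages are short-lived and are degraded by proteins that bind AU-rich elements.

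The targeted gene was lower in every knockout pool. Gpx4 had intensities of 212, 259.7 and 216.1 in the knockouts of litters A, B and C, against 496.9, 550.9 and 535.7 in the controls (log2 change, knockout minus control, -1.15 ± 0.0912 SE, limma adjusted p = 0.0206). The knockout to control ratio of mean intensities was 0.434, and 0.356 on the other Gpx4 probe set. Gpx4 signal thus remained in the knockout pools, and its source was not tested. The deposited intensities had a trimmed mean of 73.4 to 92 in knockouts and 72.8 to 114.3 in controls, so levels below are quantile-normalized intensities. The keratinocyte keratins Krt5 and Krt14 lay between 6595.7 and 6848.7 in knockouts and between 6278.1 and 7048.9 in controls. Quantile normalization gives the brightest ranks of all arrays the same values, so this likeness is partly set by it. As deposited the log2 changes were -0.17 for Krt5 and -0.12 for Krt14. Of the 9 keratinocyte markers 7 had lower values in knockouts, and the differentiation keratin Krt10 fell, with 214.9, 252.1 and 283.6 in knockouts against 590.4, 737.4 and 760.4 in controls (log2 change -1.42 ± 0.0845, adjusted p = 0.00922). Its partner Krt1 (-1.21, adjusted p = 0.0836) and the basal factor Trp63 (-0.43, adjusted p = 0.0816) had lower values in each litter and did not pass. Melanocyte genes were also bright, Dct at 2038.1 to 2267.6 in knockouts and 1535.2 to 1615.8 in controls. All 6 melanocyte markers were higher in every knockout array than in any control array, with summed intensities of 5975.6 to 6570.5 in knockouts and 4216.4 to 4405 in controls, and Tyrp1 and Mlana rose by the test. Of all probe sets 8.79% were higher in this way and 9.43% lower. The 8 fibroblast markers summed to 1321.4 to 1632.5 in knockouts and 399.3 to 1158.4 in controls, and none of them passed. Most of that sum in knockouts was Vim, at 836.1 to 1037.8 in knockouts and 196.3 to 615.6 in controls. Without Vim, a choice made after its values were seen, the sums were 401.7, 485.3 and 594.7 in the knockouts of litters A, B and C. Those of the controls were 191.4, 203 and 542.7, lower within each litter, though the ranges of the groups overlapped. Of the 8 markers 6 had higher values in knockouts, among them Col1a1 (1.12, limma adjusted p = 0.0831), and Dcn (-0.06) and Lum (-0.29) had lower values. The 12 markers of macrophages, Langerhans cells and other leukocytes were dim, with sums of 177.2 to 254.8 in knockouts and 161.4 to 211.8 in controls, and the pan-leukocyte gene Ptprc did not exceed 15.7 on any array. Xist rose (log2 change 1.36 ± 0.102) and the Y-linked Eif2s3y, Kdm5d and Uty fell (-3.33, -2.01 and -1.95) in the knockout pools, so the sex of the pools and the genotype cannot be told apart in any result below. The calls for Gpx4, Krt10, Tyrp1, Mlana and Xist were lost as deposited (adjusted p = 0.0622 to 0.539), without the intensity trend (0.0618 to 0.121) and without litter A (0.103 to 0.234) or litter B (0.186 to 0.444), where those of the 3 Y-linked genes were lost as well (0.116 to 0.278).

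Of the 10 genes, Tslp and Socs3 fell and Csf1 rose in the knockout keratinocytes. The test was limma on log2(intensity + 16) over 45037 probe sets with litter as a block, two-sided, with Benjamini-Hochberg adjustment and a threshold of 0.05, and it called 3 of the 10 genes and 0.42% of all probe sets. Of the genes 1 rose and 2 fell, against 0.158% and 0.262% of all probe sets. The brightest probe set stood for a gene that had several. The intensities of the groups did not overlap for 6 of the 10 genes, 4 higher and 2 lower in knockouts, against 18.2% of all probe sets. The genes were selected with earlier results of these arrays known, so these shares describe them and are no test. Their median log2 change was 0.34, and that of all probe sets was 0. With the intensities scaled as deposited, none of the 10 passed and 35 probe sets did (0.0777%), 3 higher and 32 lower, against 71 higher and 118 lower after quantile normalization.

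**Figure D1:**
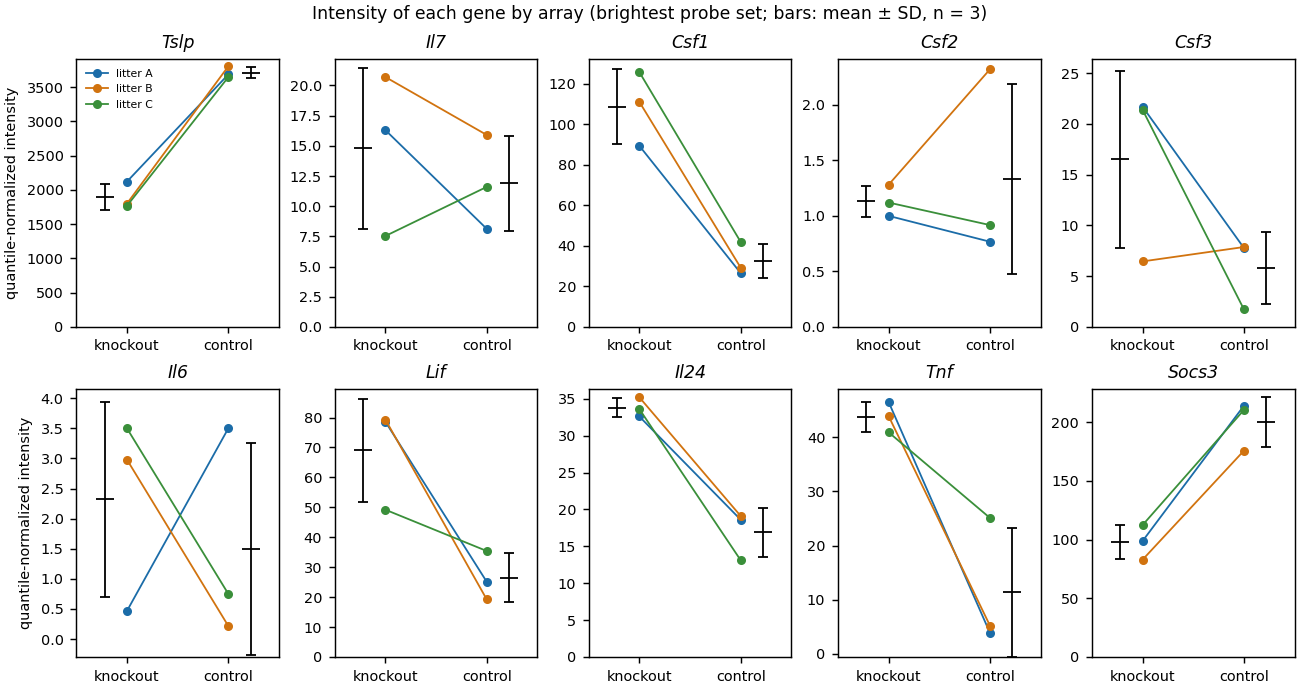
Quantile-normalized intensity of the brightest probe set of each gene on the 6 arrays, with the knockout left of the control, a line for each litter and black bars for mean ± SD (n = 3 each). Tslp and Socs3 are lower in every knockout array, Csf1, Lif, Il24 and Tnf are higher in every knockout array, and Il7, Csf2, Csf3 and Il6 overlap between the groups.

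Tslp, the epithelial cytokine of allergic inflammation, was measured by 1 probe set. Its intensity was 2120.9, 1799.8 and 1767.4 in the knockouts of litters A, B and C, against 3686.1, 3804.8 and 3647 in the controls. The groups stood far apart. After quantile normalization the controls differed from each other less than the knockouts did. As deposited the order was the reverse, with 3276.6 to 4501.3 in controls and 1527 to 1925.8 in knockouts. Tslp fell by 0.97 on the log2 scale, a 1.96-fold lower intensity + 16 (SE 0.0831, limma adjusted p = 0.0224), and by litter the differences were -0.79 in A, -1.07 in B and -1.04 in C. Krt10, given above, was also lower in every knockout array than in any control array, as were 9.43% of all probe sets. Among the knockouts, though, litter A had the highest Tslp and the lowest Krt10. Any part of lower Krt10 in the fall of Tslp was not tested. A lower level in a pool can come from fewer cells that make the message or from less message in each cell, and these cannot be told apart here. The call was lost with the intensities scaled as deposited (log2 change -1.13, adjusted p = 0.172), without the intensity trend of the variance (adjusted p = 0.114), when each gene's probe sets were averaged (0.0631), and without litter A (0.106) or litter B (0.402).

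Il7, the lymphocyte survival cytokine that shares a receptor chain with Tslp, showed no such pattern. Its brighter probe set had intensities of 16.3, 20.7 and 7.53 in the knockouts of litters A, B and C, against 8.12, 15.9 and 11.6 in the controls, and the groups overlapped. The log2 change was 0.13 with a 95% interval of -0.3 to 0.56 (limma adjusted p = 0.794). On such dim signals the added 16 hides change and narrows the interval. With a pseudocount of 1 the log2 change was 0.24 ± 0.42 SE. The other Il7 probe set did not exceed 4.45 on any array. Crlf2, the receptor chain specific to Tslp and named here after its values were seen, stood at 132.5 ± 22.5 in knockouts and 126.3 ± 7.85 in controls (SD, n = 3 each), with a log2 change of 0.05 and an interval of -0.22 to 0.32.

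Csf1, the growth and survival factor of macrophages, was measured by 4 probe sets that did not move alike. The brightest, 1460220_a_at, had intensities of 89.4, 111.1 and 125.8 in the knockouts of litters A, B and C, against 26.5, 29.2 and 41.9 in the controls. Every knockout array lay above every control array. The gene rose by this probe set, with a log2 change of 1.36 ± 0.132, or 2.58-fold in intensity + 16 (limma adjusted p = 0.0317). The added 16 shrinks the fold of a dim probe set, and the mean intensities of 108.8 in knockouts and 32.5 in controls had a ratio of 3.34. With a pseudocount of 1 the log2 change was 1.72, and with 64 it was 0.84. By litter the differences were 1.31 in A, 1.49 in B and 1.29 in C. The probe set 1448914_a_at had 57, 58.8 and 61.2 in knockouts and 28.3, 22.2 and 32 in controls. Its groups were apart as well, and its log2 change of 0.79 ± 0.15 did not pass (adjusted p = 0.0922). The remaining pair overlapped between groups, 1425154_a_at with a log2 change of 0.23 (interval -0.24 to 0.69) and 1425155_x_at with 0.15 (interval -0.22 to 0.52). The mean over the 4 probe sets gave 0.63 and did not pass (adjusted p = 0.109). The call for the brightest probe set was also lost as deposited (1.18, adjusted p = 0.129), without the intensity trend (0.0772), and without litter A (0.206) or litter B (0.402). The melanocyte marker sum given above was higher in every knockout together with Csf1, as was Vim. The sum of the other fibroblast markers was higher in the knockout of each litter, with group ranges that overlapped. The part of melanocyte and fibroblast content in the change of Csf1 was not tested.

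The stretch before the annotated start of Csf1 is printed because Csf1 is the member that rose. It covers the 250 bases before the start on the minus strand at chr3:107760470-107760719 (RefSeq, GRCm38.p6), and capitals mark matches to a letter pattern resembling NF-kB sites, GGG and TCC with 4 bases between them on either strand.
Csf1: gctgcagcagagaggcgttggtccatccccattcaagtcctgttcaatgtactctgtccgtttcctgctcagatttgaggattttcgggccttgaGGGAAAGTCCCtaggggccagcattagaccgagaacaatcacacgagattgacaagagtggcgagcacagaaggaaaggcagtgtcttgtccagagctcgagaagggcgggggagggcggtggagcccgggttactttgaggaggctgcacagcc
The capitals hold a pair of overlapping matches, 1 on each strand, within bases 155 to 145 before the start. The same pattern lies in 16.5% of 32851 promoter entries of this length, so a match is common, and none of these letters shows that a factor binds.

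Csf2, which encodes the granulocyte and macrophage factor GM-CSF, was at the floor of the arrays. Its intensity was 1, 1.28 and 1.12 in knockouts and 0.767, 2.32 and 0.917 in controls. On an array 45.4% to 50.1% of the probe sets were under 16, and on such dim signals the log2(intensity + 16) scale hides change, so the log2 change of -0.02 (interval -0.19 to 0.16) says little about Csf2. Csf3, the neutrophil factor G-CSF, had 21.7, 6.45 and 21.4 in the knockouts of litters A, B and C, against 7.78, 7.87 and 1.73 in the controls. It was higher in the knockouts of litters A and C and slightly lower in that of litter B, and the log2 change of 0.55 ± 0.231 did not pass (limma adjusted p = 0.346).

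Among the IL-6-type ligands Il6 was at the floor of the arrays, and Lif had higher values in the knockouts. Il6, an acute inflammatory cytokine, had 0.467, 2.98 and 3.5 in the knockouts of litters A, B and C, against 3.5, 0.217 and 0.75 in the controls. Lif, a cytokine that signals through Lifr and Il6st, had 78.6, 79.3 and 49.2 in the knockouts, against 25.1, 19.2 and 35.4 in the controls on its brighter probe set. The groups did not overlap, but litter C showed the smallest difference, with 0.35 against 1.2 and 1.44 in litters A and B. The log2 change was 1 ± 0.232 and did not pass (limma adjusted p = 0.136). The dimmer Lif probe set had 21.1, 10.6 and 12.8 in knockouts and 0.867, 1 and 2.43 in controls, again with no overlap (log2 change 0.81 ± 0.146, adjusted p = 0.0843). Without litter C the brighter probe set passed, with a log2 change of 1.29 (adjusted p = 0.00957), in a fit that called 5.92% of all probe sets, and it passed without the 40% dimmest probe sets (adjusted p = 0.0445). With pseudocounts of 1 and 64 its log2 change was 1.36 and 0.55.

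The bases before the Lif start are shown beside those of Csf1, since the values of both were higher in all 3 knockouts. They lie at chr11:4257318-4257567 on the plus strand (RefSeq, GRCm38.p6). Capitals mark an AP-1 pattern, TGANTCA, at bases 228 to 222 before the start and a match to the NF-kB-like pattern at bases 177 to 168.
Lif: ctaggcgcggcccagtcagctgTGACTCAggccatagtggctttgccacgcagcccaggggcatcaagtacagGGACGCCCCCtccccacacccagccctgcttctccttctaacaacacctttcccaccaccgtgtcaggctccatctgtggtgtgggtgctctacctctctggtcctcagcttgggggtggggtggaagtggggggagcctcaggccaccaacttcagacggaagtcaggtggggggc
The AP-1 pattern lies in 6.75% of the promoter entries. Of the 6 member genes with an entry, Il6 and Lif held it, and Csf1, Il6 and Lif held the NF-kB-like pattern. Tnf, whose values were also higher in all 3 knockouts, had an entry and held neither pattern, and Il24 had no entry. Il6 carried both patterns and had intensities of at most 3.5.

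Il24, a cytokine of the IL-10 family that acts on keratinocytes through receptors containing Il20rb, had 32.6, 35.2 and 33.6 in the knockouts of litters A, B and C, against 18.6, 19.1 and 13.1 in the controls. The knockouts were tightly grouped and above every control. The log2 change was 0.6 ± 0.161 (limma adjusted p = 0.173) and did not pass. Tnf, a central inflammatory cytokine and activator of NF-kB, had 46.5, 43.9 and 40.9 in the knockouts, against 3.9, 5.23 and 25.1 in the controls. The control of litter C stood well above the other controls and still below every knockout. The log2 change of 1.2 ± 0.258 did not pass (adjusted p = 0.117), and by litter it was 1.65 in A, 1.5 in B and 0.47 in C. Without litter C it was 1.54 and passed (adjusted p = 0.00899), and it also passed when arrays were brought to a common median (1.13, adjusted p = 0.0157) and without the 40% dimmest probe sets (1.2, adjusted p = 0.0339), where 4.18% of the probe sets tested passed. Its size depended on the pseudocount, with 2.27 at 1 and 0.53 at 64, neither past the threshold, and for Il24 these were 0.97 and 0.27.

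Socs3, the inhibitor that blocks JAK kinases bound to Il6st, was measured by 3 probe sets, and each was lower in every knockout array than in any control array. The brightest, 1455899_x_at, had 98.7, 82.8 and 112.3 in the knockouts of litters A, B and C, against 214, 175.7 and 210.4 in the controls. Socs3 fell by 0.93 on the log2 scale by this probe set, a 1.9-fold lower intensity + 16 (SE 0.107, limma adjusted p = 0.038), or by litter -1 in A, -0.96 in B and -0.82 in C. The suffix x of its name marks probes that may match other transcripts too. The probe set without that suffix, 1416576_at, had 22.9, 33.1 and 47 in knockouts and 82.5, 60.8 and 67.6 in controls. Its log2 change of -0.8 ± 0.206 did not pass (adjusted p = 0.161), nor did that of 1456212_x_at (-0.73 ± 0.188, adjusted p = 0.159). The call was lost as deposited (-1.12, adjusted p = 0.14), with a pseudocount of 64 (0.0557), with the mean of the 3 probe sets (0.104), without the intensity trend (0.114), and without litter A (0.268) or litter B (0.44).

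A short stretch before the Socs3 start is printed because Socs3 is a known target of STAT factors. It lies at chr11:117969502-117969531 on the minus strand (RefSeq, GRCm38.p6), from base 165 to base 136 before the annotated start, and capitals mark the STAT pattern TTCNNNGAA.
Socs3: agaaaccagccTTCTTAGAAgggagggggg
This pattern lies in 7.02% of the promoter entries and was found in 1 of the 6 members with an entry.

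**Figure D2:**
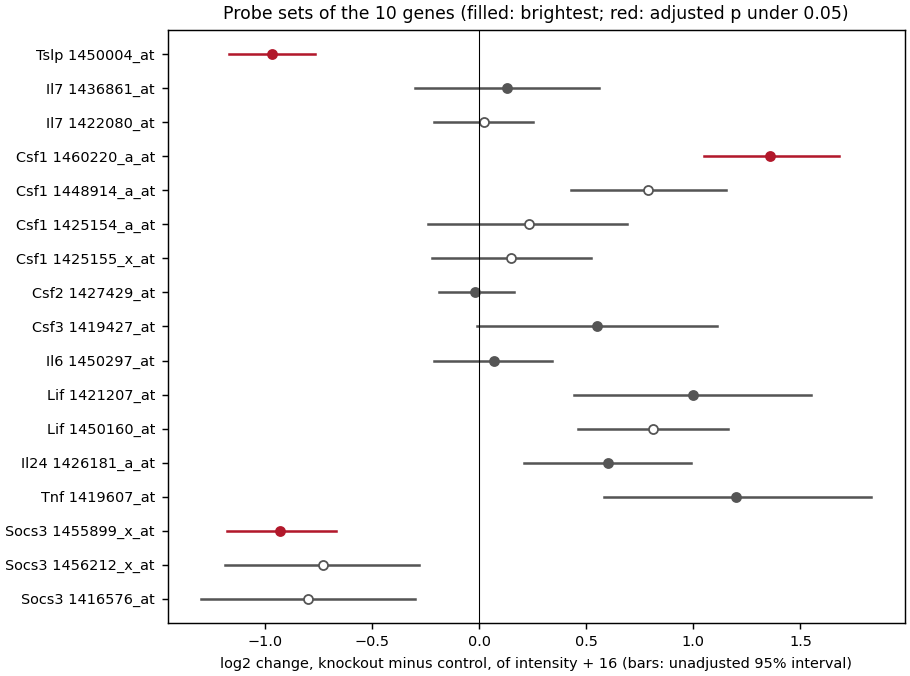
Log2 change, knockout minus control, of log2(intensity + 16) for the 17 probe sets, with unadjusted 95% intervals from limma. Filled points are the brightest probe set of a gene and red marks an adjusted p under 0.05, which Tslp (-0.97), Csf1 (1.36) and Socs3 (-0.93) reached by 1 probe set each.

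The other genes of these routes were examined in 8 lists that held 108 measured genes. Of them 2 passed, and both fell. Over all probe sets 50.5% of log2 changes were above 0 and 49.5% below. None of the 15 further ligands passed (median log2 change -0.05). Clcf1, another ligand that signals through Il6st, had 192.1, 138.1 and 71.1 in the knockouts of litters A, B and C, against 22.1, 26.8 and 57.5 in the controls. Its values thus ran with those of Lif, with wide gaps in litters A and B and a narrow one in litter C (log2 change 1.51 ± 0.387, limma adjusted p = 0.159). The mean over the probe sets of Clcf1 was 0.99 (adjusted p = 0.249). Ctf1 (-0.36), Il15 (-0.58) and Tnfsf10 (-0.35) had adjusted p of 0.275 to 0.339.

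None of the 16 receptor genes passed, and their median log2 change was -0.01. Osmr and Lifr of the IL-6 family had the smallest p-values among them, followed by Il20rb and Il6st, and all 4 had lower values in knockouts. Lifr, which pairs with Il6st to bind Lif, had 33.8, 25.6 and 24.1 in knockouts, against 165.9, 131.1 and 44.8 in controls. The control of litter C was again nearer to the knockouts (log2 change -1.43 ± 0.266, limma adjusted p = 0.0893). Osmr, the oncostatin M receptor, had 67.3, 71.8 and 78.5 in knockouts, against 116.7, 110 and 146.6 in controls, and its difference was present in all litters (-0.66 ± 0.12, adjusted p = 0.086). The mean over the probe sets of the gene was -0.23 for Osmr (adjusted p = 0.402) and -0.92 for Lifr (0.154). Il6st itself had 267.9, 285.5 and 348.4 in knockouts, against 651.4, 597.8 and 361 in controls (-0.77 ± 0.22, adjusted p = 0.193). In litter C its difference was -0.05. Il20rb, a chain of the Il24 receptors, had a log2 change of -0.67 ± 0.181 (adjusted p = 0.174). Without litter C, where 5.92% of all probe sets passed, these 4 receptor genes passed too, with Lifr at -1.81 (adjusted p = 0.00151), Il6st at -1.13 (0.00195), Osmr at -0.59 (0.0478) and Il20rb at -0.84 (0.0389). Without litter A or litter B none of the 4 passed (adjusted p = 0.403 to 0.634). Lifr also passed at a common median (0.00187), with a pseudocount of 1 (0.0416) and without the 40% dimmest probe sets (0.0243). Il6st passed at a common median (0.0336) and Osmr without the 40% dimmest (0.0325), and Il20rb passed in no further setting.

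**Figure D3:**
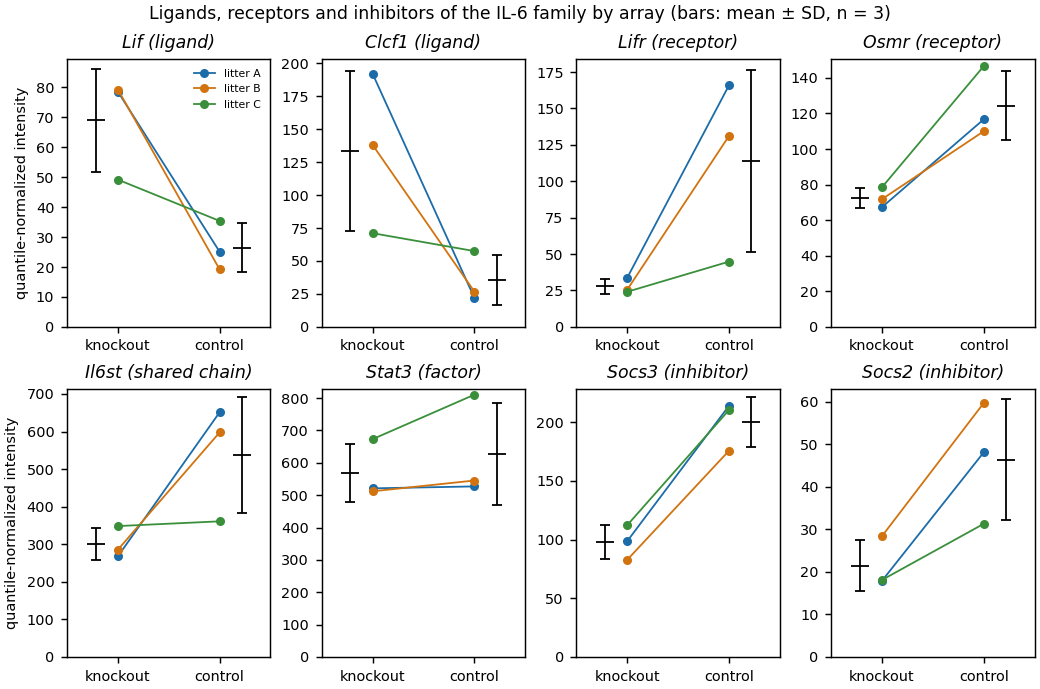
Quantile-normalized intensity on the 6 arrays of IL-6 family ligands, receptors, the factor Stat3 and SOCS inhibitors, with the knockout left of the control, a line for each litter and black bars for mean ± SD (n = 3 each). Each gene is shown by its brightest probe set. Lif and Clcf1 are higher and Lifr, Osmr, Il6st, Socs3 and Socs2 are lower in every knockout array. Of these 7 only Socs3 passed the test over all probe sets.

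Downstream of the receptors, none of the 10 JAK and STAT genes passed (median -0.11). Stat3, named here after its values were seen, had 521.1, 512 and 673.2 in knockouts and 527.1, 545.3 and 810.6 in controls, which overlap (log2 change -0.12, interval -0.33 to 0.09). Stat5a, a factor downstream of several of these receptors, had a log2 change of -0.44 ± 0.149, Stat4 one of -0.37 ± 0.122, Jak1 one of -0.24 ± 0.0956 and Jak2 one of 0.2 ± 0.106, with adjusted p of 0.248 to 0.455. Of 15 further SOCS and other inhibitor genes none passed (median -0.04). Socs2, which restrains growth hormone signals, was at 21.5 ± 6 in knockouts and 46.4 ± 14.3 in controls (SD, n = 3 each; -0.72 ± 0.167, adjusted p = 0.136). Socs6 lay on the other side, at 287.9 ± 35.5 in knockouts and 187.4 ± 64.5 in controls (0.62 ± 0.135, adjusted p = 0.12). The mean over the probe sets was -0.3 for Socs2 (adjusted p = 0.334) and 0.36 for Socs6 (0.184). Ptpn6 (-0.41) and Socs1 (0.33) had adjusted p of 0.283 and 0.389.

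Of 13 STAT3-responsive genes none passed, with log2 changes above 0 in 7 and below 0 in 6 (median 0.07). Myc, a transcription factor of growth, was at 830.2 ± 43.3 in knockouts and 492.8 ± 115.5 in controls (SD, n = 3 each; log2 change 0.76 ± 0.126, limma adjusted p = 0.0757). The survival gene Mcl1 (0.41 ± 0.0725) and the protease inhibitor Timp1 (0.6 ± 0.128) were on the same side, and the hypoxia factor Hif1a was on the other (-0.5 ± 0.0843), with adjusted p of 0.0772 to 0.115. The value of Mcl1 rested on its brightest probe set, and the mean over its probe sets was 0.01. Of 13 TNF-responsive genes none passed either, and the median log2 change was 0.23. The change was above 0 in 10 of them, among which Nfkbie (0.02), Relb (0.03) and Rel (0.09) lay near 0. The neutrophil chemokine Cxcl1 was closest to the threshold, at 218.7 ± 48.3 in knockouts and 35.6 ± 22.1 in controls (2.25 ± 0.302, adjusted p = 0.0505). Ccl20, a chemokine of lymphocytes and dendritic cells, was at 63.4 ± 9.07 in knockouts and 24.3 ± 4.51 in controls (0.98 ± 0.176, adjusted p = 0.0831). The NF-kB inhibitor Tnfaip3 (0.42) and Tnfaip8 (0.58) had adjusted p of 0.231 and 0.249.

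Of 14 genes known to bear on Tslp in skin 2 fell, against 0.262% of all probe sets, and the median log2 change was -0.28. The change was below 0 in 13 of them, among which Orai1, Nfatc3 and Rbpj (-0.04) lay at or near 0. This list was chosen with earlier results of these arrays known, so its shares describe it and are no test. Its genes stood by their brightest probe sets, whereas the share over all probe sets takes in many dim ones. Klk5, a protease that can set off Tslp through a protease-activated receptor, had 61.7, 73.5 and 81.8 in knockouts, against 142.5, 163 and 269.2 in controls (-1.19 ± 0.145, limma adjusted p = 0.0429). Nfatc1, a calcium-responsive factor, had 94.4, 97.1 and 60.7 in knockouts, against 248.4, 290.6 and 241.3 in controls (-1.48 ± 0.128, adjusted p = 0.0226). Both were lower in every knockout array than in any control array. The vitamin D receptor Vdr, through which vitamin D analogues raise Tslp in mouse skin, was at 151.2 ± 10.6 in knockouts and 287.6 ± 53.1 in controls (SD, n = 3 each; -0.85 ± 0.116, adjusted p = 0.0514). Notch1, whose loss from mouse epidermis raises Tslp, was at 750.5 ± 143.7 in knockouts and 1165.1 ± 308 in controls (-0.6 ± 0.0945, adjusted p = 0.0678). The calls for Klk5 and Nfatc1 were lost as deposited (adjusted p = 0.134 and 0.0719) and without litter A (0.233 and 0.135) or litter B (0.407 and 0.389), and without the intensity trend (0.114 and 0.1). That for Klk5 was also lost without the litter block (0.0774), with a pseudocount of 64 (0.0673) and with averaged probe sets (0.0687). The mean over the probe sets of Nfatc1 gave -0.65 (adjusted p = 0.083).

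The 12 binders of AU-rich and stem-loop elements gave no call (median 0.13). The related translation repressors Tia1 and Tial1 had opposite signs on their brightest probe sets. Tia1 was at 149 ± 13.6 in knockouts and 235.8 ± 17.6 in controls (SD, n = 3 each; log2 change -0.61 ± 0.103, limma adjusted p = 0.0772). Tial1 was at 276.5 ± 30 in knockouts and 182.3 ± 16.1 in controls (0.56 ± 0.0949, adjusted p = 0.0772). The mean over the probe sets was -0.17 for Tia1 (adjusted p = 0.462) and 0.3 for Tial1 (0.186). Zc3h12a, an RNase that degrades Il6 messages (0.39), and Khsrp (-0.29) had adjusted p of 0.271 and 0.327. With averaged probe sets Zc3h12a was at 0.17 and Khsrp at 0.11, which turns the sign of Khsrp.

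Genes whose levels ran most closely with Tslp and with Csf1 were looked up among 8221 genes with a mean intensity of at least 50, by Pearson's r over the 6 arrays. For Tslp these were Mllt6 (r = 0.995), Selenom (0.994), Btf3l4 (0.993), Fzd7 (0.993) and Il18 (0.993). Of the 5, the Wnt receptor Fzd7 (log2 change -1.01 ± 0.118, limma adjusted p = 0.0387) and the cytokine Il18 (-1.45 ± 0.143, adjusted p = 0.0317) fell. Both calls were lost as deposited (0.164 and 0.0719), without the intensity trend (0.114 and 0.1), with averaged probe sets (0.0631 and 0.0613) and without litter A (0.162 and 0.145) or litter B (0.44 and 0.402), and that for Fzd7 also with a pseudocount of 64 (0.0557). For Csf1 they were Ebna1bp2 (0.999), Tyrp1 (0.998), Pdcd11 (0.995), Rrp8 (0.995) and Mrpl9 (0.994). Of these the melanocyte enzyme gene Tyrp1 rose (0.69 ± 0.0785, adjusted p = 0.038), and the others did not pass. Beside the losses given above, the Tyrp1 call was lost with arrays at a common median (0.185), with a pseudocount of 64 (0.0529) and with averaged probe sets (0.0613). The 6 points share the split between knockout and control, so such values of r describe these arrays and are no test.

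**Figure D4:**
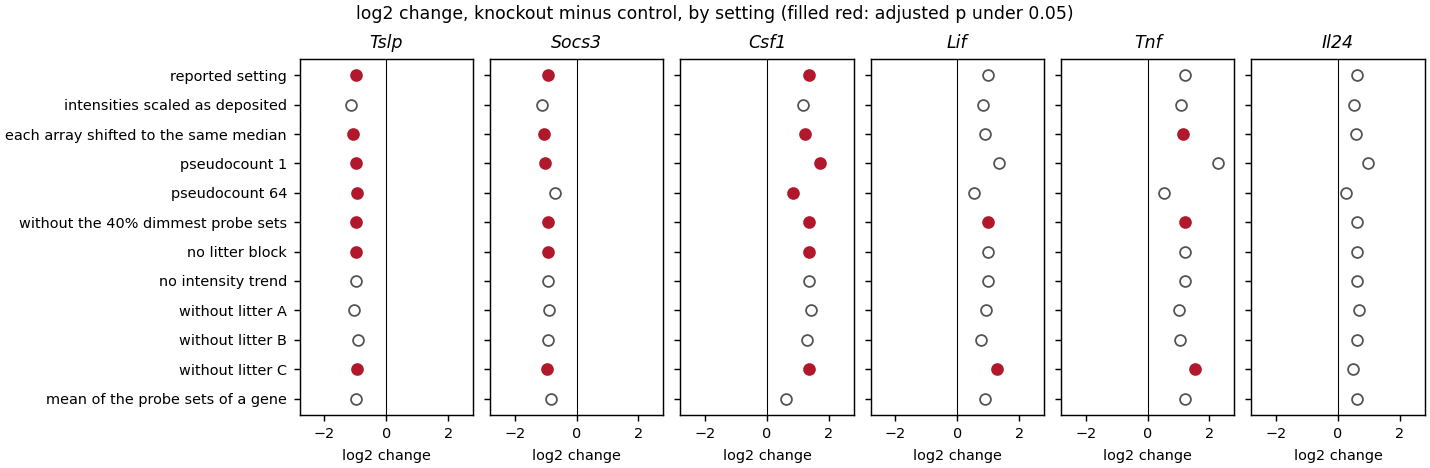
Log2 change, knockout minus control, of 6 genes under the reported setting and each alternative, with filled red points where the limma adjusted p was under 0.05. No point crosses 0, and Lif and Tnf pass in a few settings, among them without litter C (1.29 and 1.54), whereas Il24 passes in none of those shown.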

How the data were processed

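Messenger RNA was read on 1-colour Affymetrix arrays, 1 for each genotype in a litter, from Trizol-extracted total RNA labelled with biotin by in vitro transcription, per the labels' protocols. The deposited values are linear intensities, 1 for each probe set on an array. The background correction, probe summary and scaling that the authors used are not given in the sources used here. The 64 control probe sets were left out of 45101, and the other 45037 were quantile-normalized and put on the log2(intensity + 16) scale for limma 3.58.1 under R 4.3.3 (lmFit, then eBayes allowing an intensity trend). The litter entered as a block, because the labels name each array's litter and the design pairs pools within it. The deviations of a litter's knockout and control arrays from their groups had an r of 0.175 (A), 0.0474 (B) and 0.207 (C). Benjamini-Hochberg adjustment ran over all 45037 probe sets. Precision is limited by the 6 arrays.

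Symbols came from the platform annotation of the probe sets, which gave 1 gene for 34945, several for 932 and no entry for 9160. Of 119 genes in the 8 pathway lists 11 had no probe set of their own and are not reported. Genes named are the 10 members, Gpx4, the 4 genes of each pathway list with the smallest unadjusted p, sex-linked genes, and the 5 genes nearest to Tslp and to Csf1, beside markers and those marked as named after their values were seen. The members, lists and tests were chosen with earlier results of these data known, and the promoter patterns after the sequences were seen. The limma step was tested on data simulated on the log2 scale. The normalization, the pseudocount and the choice of probe sets were not part of that test.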

Additional observations from a re-analysis of the deposited data

How the results depend on the processing

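The signs of the log2 changes of Tslp, Csf1, Socs3, Lif, Tnf and Il24 held under all 11 alternatives, and the calls did not. On the scale of the deposited values, 35 probe sets and 0 of the 10 genes passed in limma (4411 probe sets and 7 genes at an unadjusted p under 0.05), with Tslp at -1.13 and Csf1 at 1.18. Without the intensity trend 6 probe sets and 0 genes passed (6 genes at an unadjusted p under 0.05), with Tslp at -0.97 and Csf1 at 1.36, neither past the threshold. When probe sets of a gene were averaged, 0 genes passed (6 at an unadjusted p under 0.05), with Tslp at -0.97 and Csf1 at 0.63. Other counts of probe sets were 710 with arrays shifted to the same median, 601 and 59 with pseudocounts of 1 and 64, and 1130 of 27022 (4.18%) without the 40% dimmest, where 5 of the 8 remaining genes passed. The cause of these differences was not tested. The filtered fit adjusted over fewer probe sets and also estimated the variance trend anew. Without the replicate block, that is with the litter pairing ignored, 135 probe sets and 3 genes passed, and Tslp, Csf1 and Socs3 kept their calls. With 1 litter left out, the number of probe sets lay between 0 (without litter B, where 3695 had an unadjusted p under 0.05) and 2666 (litter C left out; 3 with litter A left out), that of the genes between 0 and 5, the log2 change of Tslp between -1.04 and -0.92 and that of Csf1 between 1.28 and 1.43. All 189 probe sets that passed were among the 2666. Among 711 repeats for the other named genes, 581 kept their side of the threshold, 62 lost and 68 gained a call, and no called value changed sign. Of 52 named genes outside the 10, with Krt5 and Krt14 counted, the log2 change moved by over 1.5 times without turning in 16 with averaged probe sets, 15 with a pseudocount of 64, 13 as deposited and 7 at a common median. It turned in 4 as deposited (Crlf2, Krt14, Jak2 and Mrpl9), in 2 at a common median (Crlf2 and Krt14) and in 2 without litter B (Crlf2 and Krt5). With averaged probe sets it turned in 2 (Krt14 and Khsrp), and none of these values was past the threshold. Dim signals limit Csf2 and Il6, whose intensities were under 16 on every array.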
